A study of Macaca mulatta with 20 samples.

Results

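Gene expression in cerebral cortex was compared with that in pancreas of rhesus macaque (Macaca mulatta), read as cortex minus pancreas across all genes. The arrays were chosen by their tissue label alone, which gave 8 of the 20 arrays of the series, 2 cortex and 2 pancreas arrays in each of the value tables. The study divided RNA from 5 sources between arrays with rhesus probes (Rhesus Macaque Genome Array) and arrays with human probes (Human Genome U133 Plus 2.0), with 10 arrays of each type. The other sources were immortalized fibroblasts, which are cultured cells and not a tissue, testis and thymus, used here for the estimate of the spread and for a few levels. Total RNA was extracted with Trizol, and biotinylated cRNA was made from 5 ug of it. The labels call the arrays of a tissue technical replicates, so the p-values below measure the spread between arrays of an RNA sample and not between animals. The labels give no treatment, and the sources used here do not give the sex, the age or the number of animals.

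The cerebral cortex consists mainly of neurons and glia. Neurons release transmitters from small synaptic vesicles and peptides from dense core granules, and they use much of their energy for the pumps that restore ion gradients after firing. Acinar cells, which make up most of the pancreas, fold digestive proenzymes in the endoplasmic reticulum (ER), store them in zymogen granules and release them on a meal, while the scattered islets secrete hormones. Both tissues thus secrete on a signal, with different cargo and in different amounts.

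Each deposited value is the log2 expression of a probe set on an array. Each table was fitted by itself with limma over its 10 arrays, so that the 5 sources share an estimate of the spread. A call required an adjusted p (Benjamini-Hochberg) under 0.05 together with a log2 difference of 1 or more in either direction. Genes were represented by the brightest of their probe sets with a single symbol, which gave 14132 rhesus and 19775 human genes, of which 11956 were on both array types. Bacterial control transcripts that were not spiked read between 1.84 and 3.56 on the cortex and pancreas arrays with rhesus probes and between 2.14 and 3.22 on those with human probes. A gene inside this range on 1 side was at background there, and its difference was measured against background. Where a pair of differences, medians or counts is given without a label, that of the rhesus arrays stands before that of the human arrays.

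Of 52766 rhesus probe sets 8860 (16.8%) were called higher and 5612 (10.6%) lower in cortex than in pancreas. Of 54613 human probe sets 5970 (10.9%) were called higher and 2551 (4.67%) lower. Read by gene, 22.3% were higher and 15.7% lower in cortex with rhesus probes, and 15.6% and 7.3% with human probes. Among genes on both array types, 1610 (13.5%) were called higher and 787 (6.58%) lower on both, and 82 (0.686%) were called in opposite directions. Within these 11956 genes, those called the same way made up 50.8% of the genes called on the rhesus arrays. They made up 73.5% of those called on the human arrays. The differences on the array types correlated with Pearson's r = 0.74 and Spearman's rho = 0.66 over the 11956 genes, which come from the same RNA and are not independent. The difference between the array types itself was not tested.

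**Figure D1:**
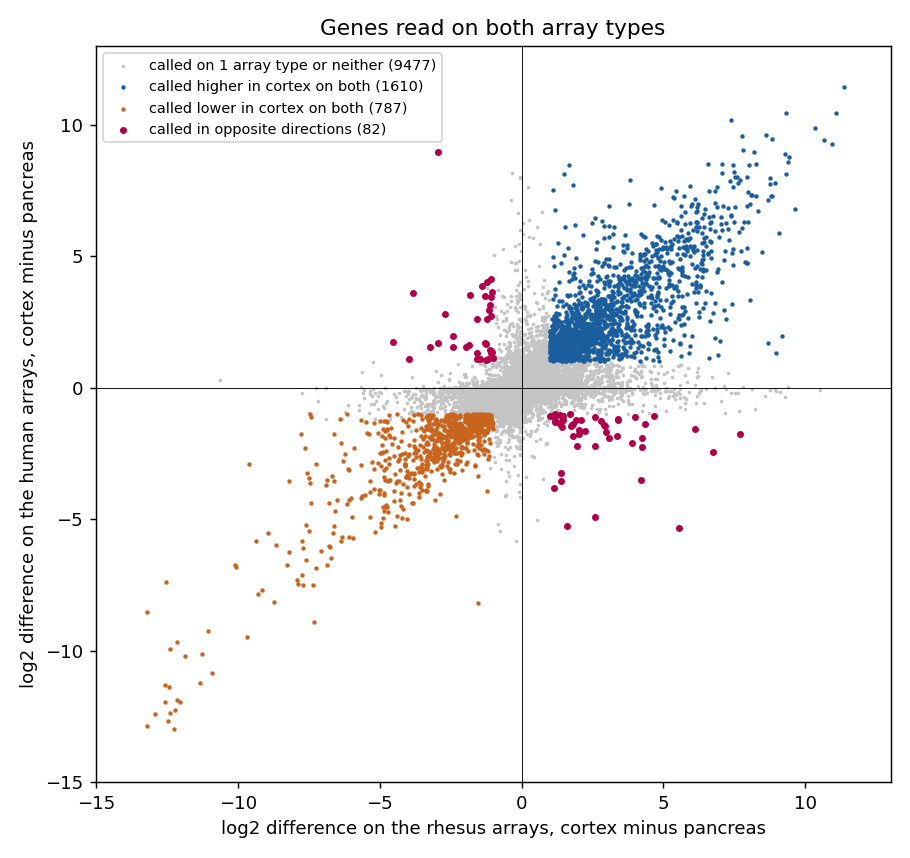
Log2 difference, cerebral cortex minus pancreas, on the rhesus arrays (x axis) against the human arrays (y axis), 1 point per gene for the 11956 genes on both. The 1610 genes called higher in cortex on both array types fill the upper right, the 787 called lower fill the lower left, and the 82 called in opposite directions lie in the other quadrants.

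The split of calls between the tissues depended on the scaling of the arrays. As deposited, 61.2% of the called rhesus probe sets and 70.1% of the called human probe sets were higher in cortex. After quantile normalization of the 10 arrays of a type, 7221 rhesus probe sets (13.7%) were higher and 7780 (14.7%) lower in cortex, so that 48.1% of the calls were higher. On the human arrays 4559 (8.35%) were then higher and 4398 (8.05%) lower, and 50.9% of the calls were higher. By gene, quantile normalization gave 17.3% higher and 21.8% lower with rhesus probes and 11.3% and 13% with human probes. On both array types 9.5% of genes were then higher and 10.8% lower in cortex, and 1.04% had opposite calls. The spiked control transcripts, which the standard protocol adds in equal amounts, averaged 10.2 on cortex and 11.2 on pancreas arrays with rhesus probes, and 10.3 on cortex and 11.4 on pancreas arrays with human probes. When they were set equal, the median difference of all probe sets moved up by 1.02 and 1.09, and 88.3% and 97.2% of the calls were higher in cortex. Differences of the size of these shifts therefore had no settled direction.

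The arrays of the tissues also differed in quality measures. The 3' minus 5' level of actin, which grows as RNA breaks down or is copied incompletely, was 2.13 in cortex and 4.58 in pancreas with rhesus probes, and 2.03 in cortex and 2.40 in pancreas with human probes. For GAPDH it was 1.85 in cortex and 2.77 in pancreas with rhesus probes, and 0.437 in cortex and 1.31 in pancreas with human probes. A control for the 5' part of 18S ribosomal RNA, present on the human arrays, read 7.44 and 7.48 on the cortex arrays and 13.61 and 13.60 on the pancreas arrays. The SD between the arrays of a pair was 0.170 for cortex and 0.281 for pancreas with rhesus probes, and 0.156 for cortex and 0.218 for pancreas with human probes. The part of these measures in the differences below was not tested.

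Genes of synaptic vesicles and of the neuronal cytoskeleton were far higher in cortex. Of the synaptic vesicle genes 11 of 11 with rhesus probes and 18 of 20 with human probes were called higher in cortex, against 22.3% and 15.6% of all genes, with median log2 differences of 7.02 and 5.77, against -0.12 and -0.068 over all genes. Of the genes of the neuronal cytoskeleton and axon 15 of 15 and 22 of 23 were higher, with medians of 7.78 and 6.62. In whole tissue, fewer cells of a type and less RNA per cell cannot be told apart, here and in all differences that follow. SYT1, the calcium sensor of synaptic vesicle fusion, read 13.94 and 14.00 on the cortex arrays and 3.64 and 3.61 on the pancreas arrays with rhesus probes. With human probes it read 13.01 and 13.10 in cortex and 3.23 and 3.11 in pancreas. Its difference was 10.35 ± 0.087 (SE, adjusted p = 2.6e-09 with limma) and 9.89 ± 0.14 (adjusted p = 1.1e-07 with limma), and the pancreas values lay at or next to background. GPM6A, a membrane glycoprotein of neurons, had the largest positive difference of all genes on each array type. It read 14.69 and 14.63 in cortex and 3.21 and 3.41 in pancreas on the rhesus arrays, and 14.74 and 14.49 in cortex and 3.19 and 3.13 in pancreas on the human arrays. NRGN, a calmodulin-binding protein of dendritic spines, read 12.85 and 12.81 in cortex and 2.22 and 2.16 in pancreas on the rhesus arrays, a difference of 10.64, and 9.42 was found on the human arrays. In each of these genes the arrays of a tissue lay close together and the tissues did not overlap. KIF5C, a kinesin motor of axonal transport, differed by 10.94 and 9.27, and SNAP25, a SNARE of the synaptic membrane read on the human arrays, by 8.13.

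Not every gene of vesicle release followed. On the human arrays SYP, the vesicle protein synaptophysin, read 4.00 and 4.24 in cortex and 3.60 and 3.39 in pancreas, and its difference of 0.63 was below the minimum, though it was called at 1.72 with the spiked controls set equal. UNC13A, a priming factor, read 4.61 and 4.63 in cortex and 4.87 and 5.15 in pancreas on the same arrays, a difference of -0.39. Both lay low in cortex and pancreas alike, and 1 of 2 human probe sets of UNC13A was called higher. ELAVL3, a neuronal RNA-binding protein, was higher in cortex by 3.18 on the rhesus arrays and differed by -0.43 on the human arrays, where it was called lower after quantile normalization, at -1.14. These are the values of its brightest probe set, and 2 of its 3 human probe sets were called higher.

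**Figure D2:**
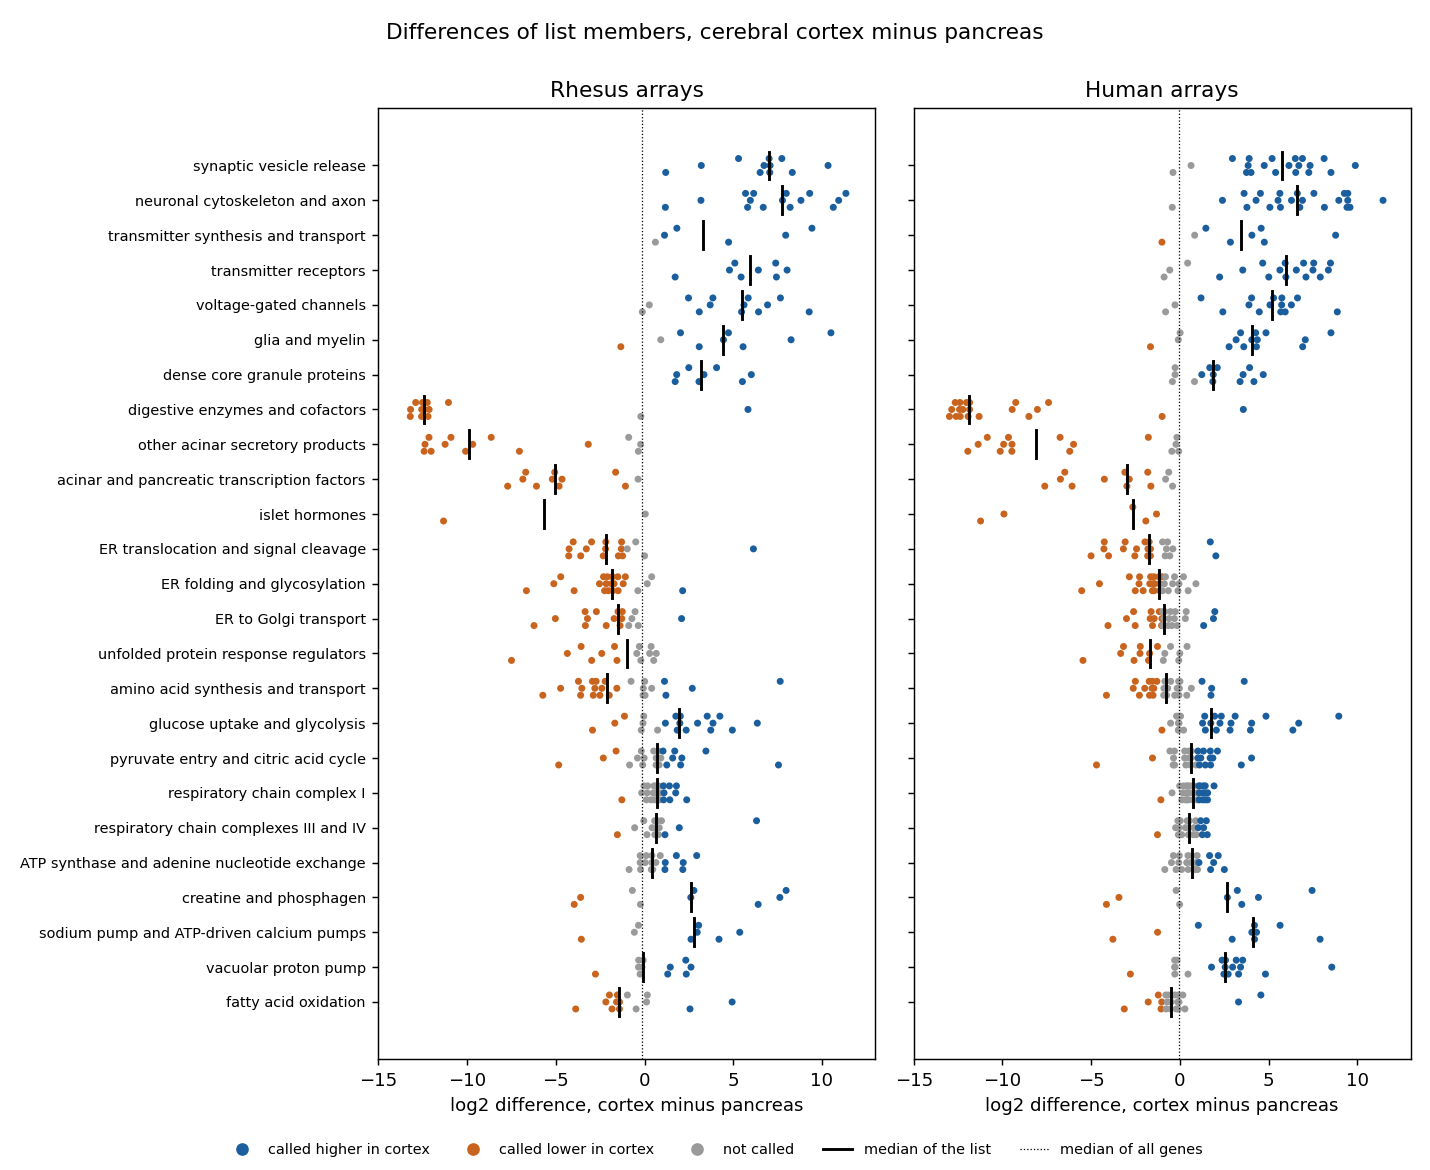
Log2 difference, cerebral cortex minus pancreas, of the members of 25 gene lists with rhesus probes (left) and human probes (right), 1 point per gene. Blue and orange points were called higher and lower in cortex, black bars are list medians and the dotted line is the median of all genes. Neuronal lists lie to the right, exocrine lists far to the left, ER lists moderately to the left, and the respiratory chain close to 0.

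The genes that make, load and sense transmitters were also mostly higher in cortex. For transmitter synthesis and transport 5 of 6 and 6 of 8 genes were called higher, for transmitter receptors 8 of 8 and 15 of 18, and for voltage-gated channels 11 of 13 and 14 of 16. GAD1, which makes the inhibitory transmitter GABA, read 11.84 and 11.93 in cortex and 2.45 and 2.45 in pancreas on the rhesus arrays, and 11.30 and 11.25 in cortex and 2.50 and 2.50 in pancreas on the human arrays. GAD2, the other glutamate decarboxylase, which islets also express, had smaller differences of 1.82 and 2.85, and its pancreas values of 5.99 and 6.01 on the rhesus arrays were above background. The median of its human probe sets was -0.020. SLC17A7, which loads glutamate into vesicles, read 10.26 and 10.24 in cortex and 2.31 and 2.27 in pancreas on the rhesus arrays, and 8.16 and 8.14 in cortex and 3.37 and 3.41 in pancreas on the human arrays. Markers of inhibitory and of excitatory neurons were thus far above their pancreas values on both array types. The sodium channel SCN2A differed by 9.28 and 8.87 and the GABA-A receptor subunit GABRA4 by 8.04 and 6.97. The other members of these lists were not called, except SLC6A11, a GABA transporter, which was called lower in cortex on the human arrays at -1.01 and was not called on the rhesus arrays at 0.61. The human call was lost when the spiked controls were set equal, at 0.077, without cortex replicate 3, at -0.90, and without pancreas replicate 3, at -0.66. With the spiked controls set equal it was called higher on the rhesus arrays, at 1.63.

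Glial genes were mostly higher in cortex, with 7 of 9 and 12 of 15 called. SLC1A3, a glutamate transporter of astrocytes, differed by 8.26 and 8.52, and GFAP, the astrocyte filament, by 3.08 and 6.92, though the median of its human probe sets was -0.019. MBP, a main protein of myelin, read 13.56 and 13.53 in cortex and 2.82 and 3.27 in pancreas on the rhesus arrays. With human probes the brightest probe set read 6.53 and 6.25 in cortex and 6.43 and 6.52 in pancreas and did not separate the tissues, while 2 of its 9 human probe sets were called higher. SLC1A2, which clears glutamate from the synapse, read 13.73 and 13.86 in cortex and 9.28 and 9.42 in pancreas on the rhesus arrays, and 13.62 and 13.10 in cortex and 9.07 and 9.01 in pancreas on the human arrays. The pancreas value was well above background, and above the means of 2.93 in fibroblasts, 2.95 in testis and 2.72 in thymus on the rhesus arrays. ALDH1L1, a folate enzyme used as an astrocyte marker, went against the list and was called lower in cortex, at -1.34 and -1.66. Its differences were -0.32 and -0.57, and not called, with the spiked controls set equal.

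Digestive enzymes were far lower in cortex. Called lower in cortex were 12 of 14 enzymes and cofactors with rhesus probes and 19 of 20 with human probes, against 15.7% and 7.3% of all genes, with medians of -12.43 and -11.90. PLA2G1B, the pancreatic phospholipase, read 2.17 and 2.17 in cortex and 15.39 and 15.35 in pancreas on the rhesus arrays. With human probes it read 2.54 and 2.54 in cortex and 15.41 and 15.39 in pancreas, and the differences were -13.20 ± 0.043 (SE, adjusted p = 7.9e-11 with limma) and -12.86 ± 0.056 (adjusted p = 5.9e-10 with limma). CPA1, a carboxypeptidase, read 2.50 and 2.49 in cortex and 15.39 and 15.40 in pancreas on the rhesus arrays, and PNLIP, the triglyceride lipase, 2.91 and 2.99 in cortex and 15.34 and 15.36 in pancreas. These cortex values were background, and the pancreas values were among the highest in the table. The trypsinogen PRSS2 differed by -12.25 and -12.99, the carboxypeptidase CPB1 by -12.46 and -12.66, and the elastase family member CELA3B by -12.56 and -11.94. Trypsinogens and elastases are families of near-identical genes whose transcripts can bind each other's probes, so single members are uncertain. CLPS, the cofactor of pancreatic lipase, and PNLIPRP2, a related lipase, had smaller differences on the human arrays, at -8.51 and -7.40, than on the rhesus arrays, at -13.19 and -12.51. CLPS still read 11.09 and 11.26 in pancreas against 2.66 and 2.67 in cortex there, and the gap between the array types was not tested.

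RNASE1, the secreted ribonuclease known from pancreas, went the other way. It read 8.86 and 8.87 in cortex and 2.95 and 3.12 in pancreas on the rhesus arrays, and 6.41 and 6.40 in cortex and 2.83 and 2.83 in pancreas on the human arrays. It was called higher in cortex by 5.83 ± 0.12 and 3.58 ± 0.13 (SE, adjusted p = 1.4e-07 and 4.8e-06 with limma), and its pancreas values lay in the range of background. It was the only member of the list called higher in cortex on either array type. DNASE1, a secreted nuclease, had differences of -0.21 and -1.0. The human difference was called lower as deposited, but not with the spiked controls set equal, at 0.087, nor without cortex replicate 4, at -0.62, nor without either pancreas array, at -1.0.

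The other products of acinar cells behaved like the enzymes, with 11 of 14 and 12 of 16 called lower in cortex and none called higher. SPINK1, the trypsin inhibitor of pancreatic juice, differed by -12.43 and -11.37, CUZD1, a zymogen granule protein, by -12.03 and -11.95, and GP2, the main glycoprotein of the granule membrane, by -12.37 and -9.93. VAMP8, the SNARE of zymogen granules, read 3.37 and 4.10 in cortex and 10.76 and 10.81 in pancreas on the rhesus arrays and 2.96 and 3.24 in cortex and 9.31 and 9.30 in pancreas on the human arrays. VAMP2, the SNARE of synaptic vesicles, read 8.14 and 8.13 in cortex and 4.65 and 5.21 in pancreas on the rhesus arrays and 8.63 and 8.67 in cortex and 5.76 and 5.62 in pancreas on the human arrays. The SNARE paralogues thus moved in opposite directions, by -7.05 and -6.21 for VAMP8 and by 3.20 and 2.96 for VAMP2. CCKAR, a receptor for the hormone that triggers enzyme release in rodents, lay at background in both tissues, at 2.10 and 2.09 in cortex and 2.18 and 2.45 in pancreas on the rhesus arrays.

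**Figure D3:**
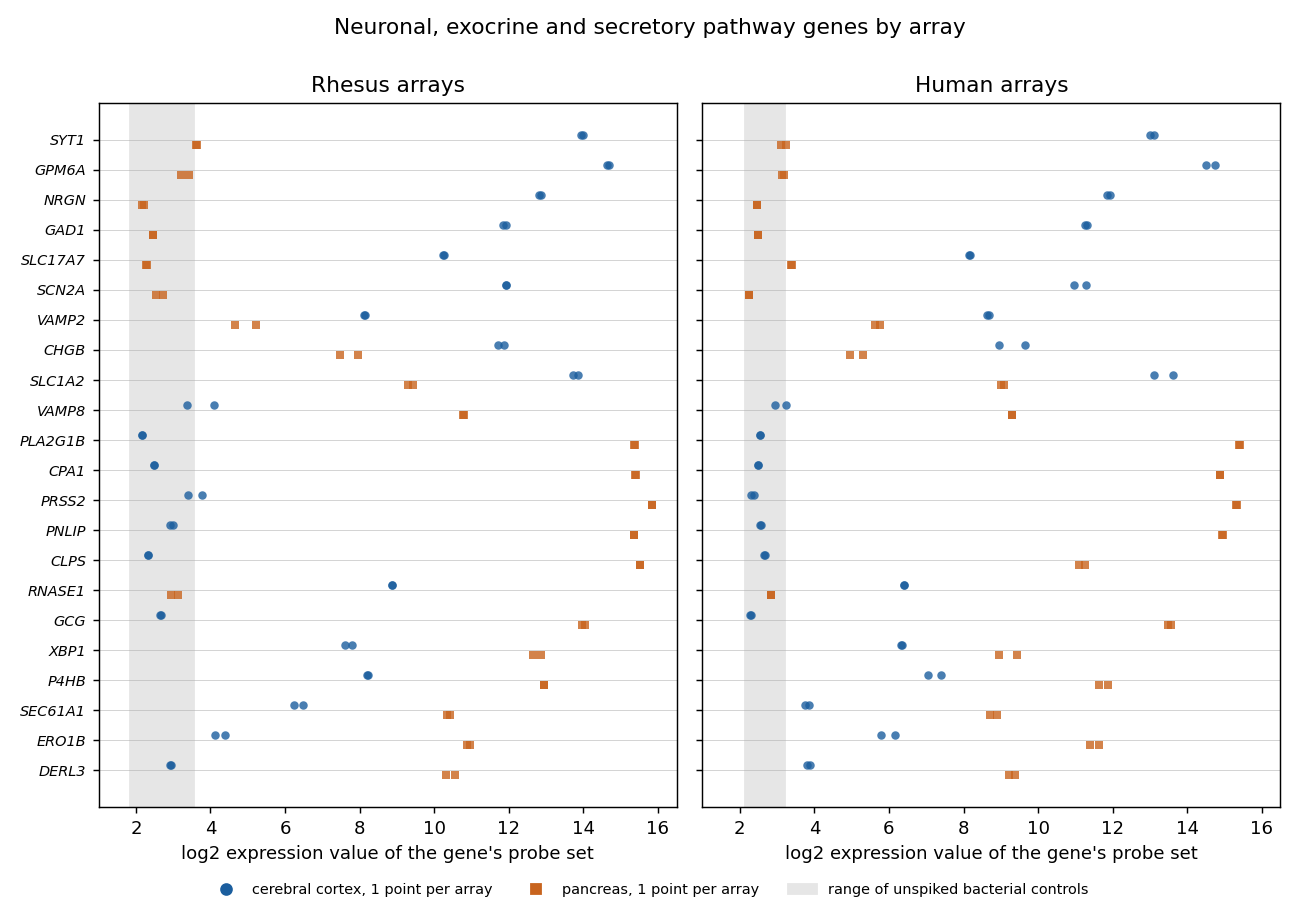
Log2 expression value of 22 genes on each array with rhesus probes (left) and human probes (right). Blue circles are the 2 cortex arrays, orange squares the 2 pancreas arrays, and the grey band is the range of bacterial controls that were not spiked. SYT1, GPM6A, NRGN and GAD1 lie in or next to the band in pancreas and the digestive enzymes in or next to the band in cortex, with RNASE1 the other way round.

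Transcription factors of acinar and islet cells were lower in cortex in 10 of 11 and 10 of 13 cases, with medians of -5.06 and -2.99. NR5A2, an acinar regulator, differed by -7.72 and -6.08, GATA6 by -6.86 and -6.73, and FOXA2, a factor of gut endoderm, by -6.70 and -6.49. XBP1, which expands the secretory pathway, was present in both tissues at 7.80 and 7.59 in cortex and 12.65 and 12.87 in pancreas on the rhesus arrays, and at 6.31 and 6.35 in cortex and 9.42 and 8.94 in pancreas on the human arrays. Its difference of -5.06 and -2.85 was thus not measured against background.

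Islet hormones were called lower in cortex in 1 of 2 cases with rhesus probes and 5 of 5 with human probes. Glucagon (GCG) read 2.68 and 2.66 in cortex and 13.96 and 14.03 in pancreas on the rhesus arrays and differed by -11.33 and -11.23. Insulin (INS), read on the human arrays, was 2.39 and 2.40 in cortex and 12.30 and 12.31 in pancreas. Somatostatin (SST), which cortical interneurons make as well as islet cells, read 10.46 and 10.37 in cortex and 11.73 and 11.74 in pancreas. It was high on all 4 arrays, with a difference of -1.32 ± 0.073 (SE, adjusted p = 3.6e-05 with limma) that became -0.23 and was not called with the spiked controls set equal.

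Genes of the dense core granule, which stores peptides in neurons and hormones in islet cells, were higher in cortex in 8 of 8 and 10 of 14 cases, with medians of 3.21 and 1.87. Chromogranin B (CHGB) read 11.86 and 11.70 in cortex and 7.97 and 7.48 in pancreas on the rhesus arrays, and 9.66 and 8.96 in cortex and 5.30 and 4.97 in pancreas on the human arrays. Secretogranin II (SCG2) read 11.35 and 11.32 in cortex and 8.0 and 8.54 in pancreas on the rhesus arrays and differed by 3.07 and 3.93. Unlike SYT1, both were well above background in pancreas on the rhesus arrays. CADPS, which primes these granules for release, differed by 6.02 and 4.70. Among the members without a call were PAM, which amidates peptides, at -0.27 and the granule phosphatase homologue PTPRN2 at -0.27 on the human arrays, and PTPRN2 read 8.63 and 8.59 in cortex and 8.60 and 9.16 in pancreas. After quantile normalization PTPRN2 was called lower in cortex, at -1.06.

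Of the markers of other cell types that the tissues could hold, those of ducts, fibroblasts and endothelium were mostly or often lower in cortex. Duct epithelium genes were lower in 9 of 13 and 8 of 14 cases, against 15.7% and 7.3% of all genes. EPCAM, an epithelial adhesion molecule, was at -7.71 and -7.48 and CFTR, the chloride channel of ducts, at -5.28 and -2.81. The duct gene KRT18 was called higher on the rhesus arrays, at 2.58, and lower on the human arrays, at -4.91. Fibroblast and matrix genes were lower in 8 of 9 and 8 of 12 cases, with COL1A1 at -7.30 and -8.90, and the member called higher on each array type was THY1, which neurons also carry. The log2 of the summed list was 13.96 to 14.03 on cortex and 13.67 to 13.73 on pancreas arrays with rhesus probes, and 11.16 to 11.18 on cortex and 14.45 to 14.48 on pancreas arrays with human probes. THY1, at 13.90 and 13.96 on the cortex arrays with rhesus probes and 7.48 and 8.07 on the pancreas arrays, made up most of the cortex sum there. Endothelial genes were lower in 6 of 9 and 4 of 9 cases and higher in 1 and 0. PECAM1, an adhesion molecule, was lower at -2.39 and -1.74. It was -0.66 and not called on the human arrays with the spiked controls set equal. Of the fat cell genes 1 of 4 and 2 of 6 were lower, FABP4 among them at -10.05 and -6.83. The remaining lists had few calls. Of the T and B cell genes 1 of 5 and 0 of 9 were lower, and of the macrophage and microglia genes 2 of 9 and 1 of 9, with 2 and 0 higher. Red cell genes were lower in 1 of 3 and 1 of 4 cases and smooth muscle genes in 2 of 4 and 0 of 7, with 1 higher on the human arrays. The part of these cells in the ER and metabolic differences below was not tested.

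Genes that bring proteins into the ER were mostly lower in cortex. Of the translocation and signal cleavage genes 13 of 17 and 14 of 22 were called lower, against 15.7% and 7.3% of all genes, with medians of -2.18 and -1.77, and 1 and 2 were called higher. SEC61A1, the channel through which new proteins enter the ER, read 6.23 and 6.48 in cortex and 10.33 and 10.42 in pancreas on the rhesus arrays, and 3.74 and 3.87 in cortex and 8.72 and 8.90 in pancreas on the human arrays. TRAM1, which assists the channel, differed by -4.27 and -4.26, the translocon-associated subunit SSR3 by -4.25 and -4.02, and SRPRA, the receptor subunit of the signal recognition particle, by -2.99 and -3.08. SEC61A1 stood above background in cortex on both array types, with differences of -4.02 and -5.01. The members called higher on the human arrays were SRP14 and SRP9, which form the Alu domain of that particle, at 2.03 and 1.71. SRP9 was not called after quantile normalization, at 0.90. SPCS2, of the signal peptidase, was called higher in cortex on the rhesus arrays at 6.14 and was not called on the human arrays at -0.57, where quantile normalization gave a lower call at -1.05. With the spiked controls set equal, 9 and 8 translocation genes were called lower and 2 and 2 higher. The medians were then -1.17 and -0.68, against 0.90 and 1.02 over all genes.

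Folding factors of the ER were lower in 18 of 22 and 18 of 29 cases, with medians of -1.84 and -1.19. P4HB, the main protein disulfide isomerase, read 8.20 and 8.22 in cortex and 12.93 and 12.93 in pancreas on the rhesus arrays, and 7.40 and 7.05 in cortex and 11.87 and 11.65 in pancreas on the human arrays. ERO1B, the oxidase paralogue known from pancreas, read 4.13 and 4.38 in cortex and 10.95 and 10.88 in pancreas on the rhesus arrays, and 5.79 and 6.16 in cortex and 11.38 and 11.64 in pancreas on the human arrays. Its widely expressed paralogue ERO1A read 7.38 and 7.33 in cortex and 6.95 and 6.96 in pancreas on the rhesus arrays and was not called on either array type, at 0.40 and 0.90. It was called higher in cortex with the spiked controls set equal, at 1.42 and 1.99, and on the human arrays without pancreas replicate 3, at 1.08. Among the oligosaccharyltransferases STT3A, which acts during translocation, was lower at -2.25 and -1.46, and STT3B, which acts later, had differences of 0.15 and 0.47 and was not called. STT3A was not called on the human arrays with the spiked controls set equal, at -0.37, and STT3B was called higher in cortex, at 1.17 and 1.55. HSPA5 (BiP), read on the human arrays, was 9.84 and 10.02 in cortex and 11.31 and 11.38 in pancreas, a difference of -1.42 that became -0.33 and was not called with the spiked controls set equal. HSP90B1 was called higher in cortex on the rhesus arrays at 2.15 and had a difference of -0.047 on the human arrays, called at 1.04 with the spiked controls set equal. Of its 2 rhesus probe sets 1 was called higher, and of its 2 human probe sets 1 lower. With the spiked controls set equal, 10 folding factors were called lower and 3 higher with rhesus probes, and 6 lower and 4 higher with human probes. Over all genes 1015 of 14132 and 512 of 19775 were then lower and 5854 and 10835 higher. The list medians were then -0.82 and -0.10, against 0.90 and 1.02 over all genes.

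Among the 5 sources, cortex was the lowest for these folding factors and pancreas the next after the fibroblasts, which were the highest. The log2 of their summed values was 13.55 to 13.58 on cortex and 15.27 to 15.30 on pancreas arrays with rhesus probes, and 15.85 in fibroblasts, 15.15 in testis and 15.02 in thymus. On the human arrays it was 13.14 to 13.16 in cortex and 14.77 to 14.78 in pancreas, and 15.83, 14.47 and 14.25 in the other sources in the same order. For the translocation genes pancreas was the highest, at 15.80 to 15.82 against 13.69 to 13.71 in cortex on the rhesus arrays and 15.52 to 15.53 against 13.98 to 14.00 on the human arrays, with fibroblasts next at 15.29 and 15.39. These sums carry the same scaling uncertainty and were not tested.

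For transport from the ER to the Golgi 12 of 17 and 11 of 27 genes were called lower in cortex and 1 and 3 higher. Over all genes 15.7% and 7.3% were lower. After quantile normalization 20 of 27 human genes were called lower, against 13% of all genes. The human median of -0.91 became -1.68 with quantile normalization and 0.18 with the spiked controls set equal. In that last setting 7 genes were lower and 1 higher with rhesus probes, and 4 lower and 5 higher with human probes. Over all genes 1015 of 14132 and 512 of 19775 were then lower and 5854 and 10835 higher, with medians of 0.90 and 1.02. TMED3, a cargo receptor of the p24 family, read 6.33 and 6.37 in cortex and 11.38 and 11.39 in pancreas on the rhesus arrays, and the p24 member TMED6, listed with the acinar products, differed by -10.91 and -10.86. Among the receptors that return ER proteins, KDELR3 was lower at -6.23 and -2.52. SEC24D, a subunit of the COPII vesicle coat, was lower at -3.33 and -3.01. SEC23A, a coat subunit too, read 9.32 and 9.35 in cortex and 7.28 and 7.20 in pancreas on the rhesus arrays and was higher in cortex on both array types, by 2.09 and 1.89, while its paralogue SEC23B was lower at -1.16 on the human arrays, a call lost with the spiked controls set equal, at -0.073. The coat subunits thus did not all move one way.

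Regulators of the unfolded protein response were called lower in 7 of 14 and 9 of 15 cases, against 15.7% and 7.3% of all genes, and none was called higher. With the spiked controls set equal 5 and 6 were lower and 4 and 3 higher. Over all genes 1015 of 14132 and 512 of 19775 were then lower and 5854 and 10835 higher. DERL3, an ER degradation factor, read 2.94 and 2.93 in cortex and 10.31 and 10.55 in pancreas on the rhesus arrays, and 3.87 and 3.80 in cortex and 9.21 and 9.38 in pancreas on the human arrays. Its paralogue DERL1 was not called on the rhesus arrays, at 0.29, and was lower on the human arrays, at -1.26. DERL1 was, with the spiked controls set equal, called higher on the rhesus arrays, at 1.30, and not called on the human arrays, at -0.17. CREB3L1, a transcription factor held in the ER membrane, was lower at -4.35 and -2.25, and HERPUD1, which is induced by ER stress, at -2.41 and -1.70, which was -0.62 and not called on the human arrays with the spiked controls set equal. DDIT3 (CHOP), the stress factor linked to cell death, was not called as deposited, at 0.37 and 0.41, and was called higher in cortex with the spiked controls set equal, at 1.39 and 1.49.

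Genes of amino acid synthesis and transport were called lower in cortex in 14 of 24 and 12 of 30 cases and higher in 4 and 4, with medians of -2.10 and -0.80, against 15.7% and 7.3% of all genes lower. With the spiked controls set equal 12 were lower and 7 higher on the rhesus arrays, and 4 lower and 10 higher on the human arrays. Over all genes 1015 of 14132 and 512 of 19775 were then lower and 5854 and 10835 higher. The list medians were then -1.09 and 0.29, against 0.90 and 1.02 over all genes. ASNS, asparagine synthetase, read 9.57 and 9.63 in cortex and 12.38 and 12.42 in pancreas on the rhesus arrays, and 9.27 and 9.43 in cortex and 11.62 and 11.64 in pancreas on the human arrays. SLC43A1, a transporter of branched-chain amino acids, was lower at -4.73 and -1.57, and at -0.48 it was not called on the human arrays with the spiked controls set equal. The glutamate enzymes went the other way, with GOT1, the cytosolic aspartate aminotransferase, higher by 2.69 and 3.63 and GLUL, glutamine synthetase of astrocytes, by 1.13 and 1.25. GLUL lost its calls after quantile normalization, at 0.90 and 0.85. Of the enzymes that charge tRNAs 2 of 11 were called higher and 2 lower with rhesus probes, and 1 and 2 of 17 with human probes, with medians of -0.33 and -0.013. Over all genes 22.3% and 15.6% were higher and 15.7% and 7.3% lower. After quantile normalization 0 and 0 were higher and 4 and 6 lower, against 17.3% and 11.3% of all genes higher and 21.8% and 13% lower. With the spiked controls set equal 4 and 10 were higher and 0 and 0 lower, beside the counts over all genes given above. The list thus had no settled direction under these scalings.

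Genes of glycolysis were mostly higher in cortex. Of the genes of glucose uptake and glycolysis 13 of 20 and 17 of 27 were called higher and 3 and 1 lower, with medians of 1.91 and 1.74. After quantile normalization 12 and 14 were called higher, with medians of 1.54 and 1.16. GAPDH read 12.13 and 12.22 in cortex and 8.07 and 7.79 in pancreas on the rhesus arrays, and 13.26 and 13.25 in cortex and 9.15 and 9.40 in pancreas on the human arrays. ALDOC, the aldolase of brain, read 11.93 and 11.85 in cortex and 6.85 and 7.03 in pancreas on the rhesus arrays and differed by 4.95 and 6.37, while the general form ALDOA was higher by 1.84 and 2.06. The tissues were clearly separate in each of these genes, and the brain isoform had the larger difference. PFKP, the platelet form of phosphofructokinase, read 9.22 and 9.37 in cortex and 2.29 and 3.59 in pancreas on the rhesus arrays and was higher by 6.36 and 4.85. PFKL, the liver form, was called higher on the rhesus arrays at 1.18 and lower on the human arrays at -1.01. The rhesus call was lost after quantile normalization, at 0.56, and without pancreas replicate 1, at 0.90. The human call was lost with the spiked controls set equal, at 0.076, and without pancreas replicate 4, at -0.95. The glucose transporter SLC2A1 was higher by 3.53 and 3.11 and the pyruvate kinase PKM by 3.86 and 1.74. ENO2, the neuronal enolase, was called in opposite directions, at 7.99 and 8.03 in cortex and 10.98 and 10.90 in pancreas on the rhesus arrays and 11.87 and 11.73 in cortex and 2.75 and 2.94 in pancreas on the human arrays. A single probe set carried it on each array type, and that on the rhesus arrays also read 12.31 in fibroblasts, where the human one read 2.91.

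The log2 of the summed glycolytic values placed pancreas at the low end. It was 14.98 to 15.03 in cortex and 12.98 to 12.99 in pancreas on the rhesus arrays, with 15.31 in fibroblasts, 13.66 in testis and 14.17 in thymus. On the human arrays it was 15.28 to 15.33 in cortex and 12.54 to 12.59 in pancreas, with 15.04, 13.46 and 14.23 in the same other sources. Pancreas was the lowest of the 5 on both array types, and cortex stood near fibroblasts, below them on the rhesus and above them on the human arrays.

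Mitochondrial energy genes differed less, and their calls turned on the scaling. For pyruvate entry and the citric acid cycle 8 of 22 and 13 of 29 genes were higher and 3 and 2 lower in cortex, with medians of 0.72 and 0.65. After quantile normalization 5 and 6 were higher and 5 and 5 lower, with medians of 0.16 and 0.18. Over all genes 22.3% and 15.6% were higher as deposited, and 17.3% and 11.3% after quantile normalization. MDH1, the cytosolic malate dehydrogenase of the shuttle that carries electrons into mitochondria, read 13.67 and 13.69 in cortex and 10.12 and 10.32 in pancreas on the rhesus arrays, and 13.88 and 13.81 in cortex and 9.78 and 9.82 in pancreas on the human arrays. The mitochondrial form MDH2 had differences of 0.52 and 0.27 and was not called, except at 1.53 and 1.36 with the spiked controls set equal. The alternative subunits of succinyl-CoA ligase moved in opposite directions. SUCLA2, its ATP-forming subunit, read 10.82 and 10.98 in cortex and 8.75 and 8.98 in pancreas on the rhesus arrays, and 8.89 and 8.89 in cortex and 6.81 and 6.73 in pancreas on the human arrays. SUCLG2, its GTP-forming subunit, read 5.95 and 6.33 in cortex and 8.38 and 8.54 in pancreas on the rhesus arrays, and 6.87 and 6.76 in cortex and 8.36 and 8.37 in pancreas on the human arrays. SUCLA2 was higher in cortex by 2.03 and 2.12, SUCLG2 was lower at -2.32 and -1.54, and SUCLG2 was not called on the human arrays with the spiked controls set equal, at -0.46. PDK4, which shuts pyruvate out of the cycle, was lower at -4.84 and -4.70 and its paralogue PDK2 higher by 1.70 and 1.33, a call lost on the human arrays after quantile normalization, at 0.87.

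**Figure D4:**
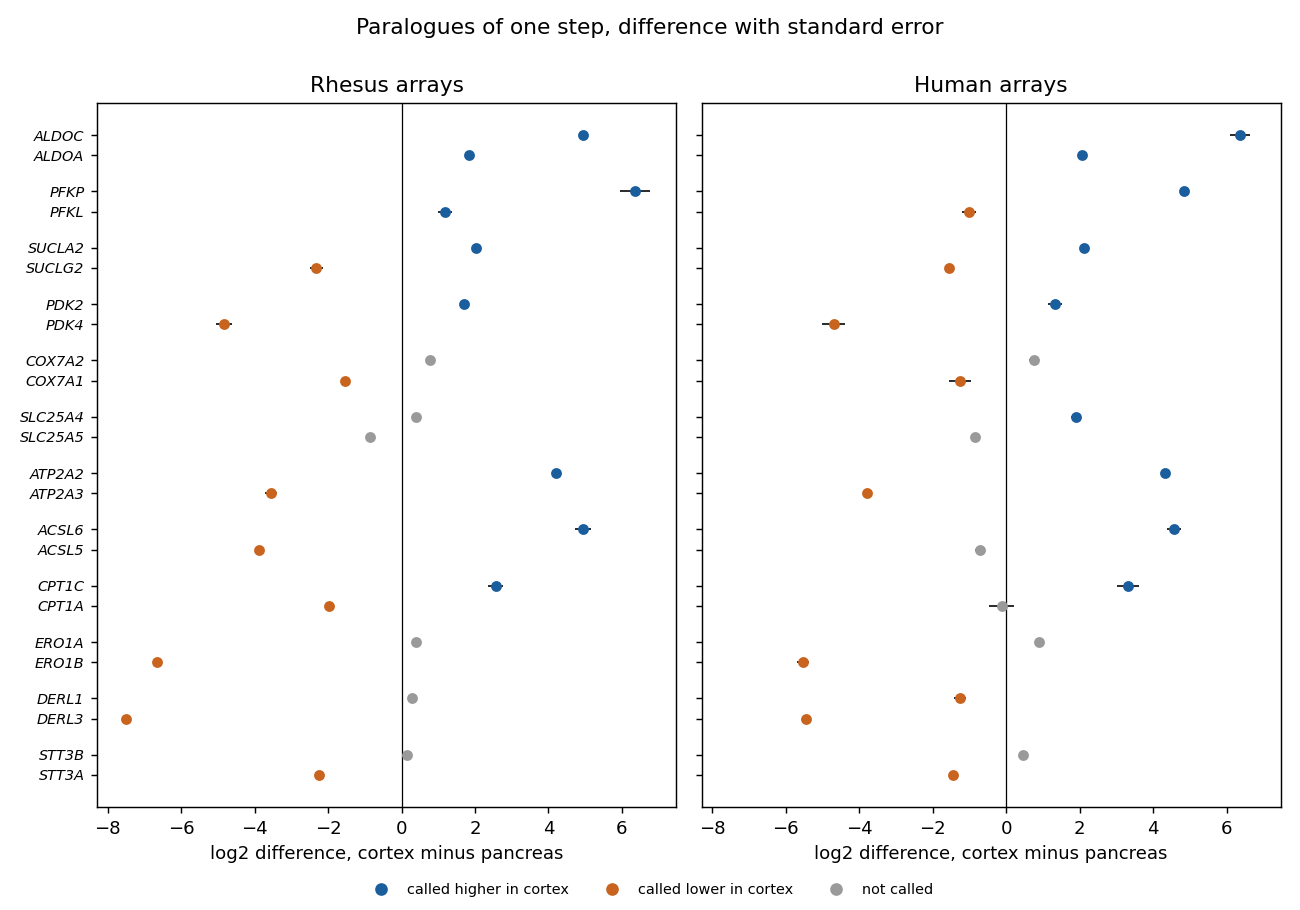
Log2 difference, cerebral cortex minus pancreas, with its standard error for 12 pairs of paralogues with rhesus probes (left) and human probes (right). Blue and orange points were called higher and lower in cortex and grey points were not called. SUCLA2 and SUCLG2, PDK2 and PDK4, and ATP2A2 and ATP2A3 were called in opposite directions on both array types as deposited.

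In the respiratory chain 8 of 25 and 13 of 33 genes of complex I were called higher in cortex, against 22.3% and 15.6% of all genes, with medians of 0.69 and 0.76. Quantile normalization gave 3 and 1 higher calls, against 17.3% and 11.3% of all genes, with medians of 0.18 and 0.22. With the spiked controls set equal 22 and 31 were called higher, but so were 5854 of 14132 and 10835 of 19775 genes over all. NDUFS1, the largest subunit, was higher by 1.76 and 1.93, with a median of -0.087 over its human probe sets, and NDUFV3 went against the list at -1.28 and -1.07. NDUFV3 was not called with the spiked controls set equal, at -0.26 and 0.017, nor on the human arrays without pancreas replicate 3, at -0.91. In complexes III and IV 3 of 15 and 6 of 22 genes were higher, with medians of 0.62 and 0.51, which on the rhesus arrays was no larger a share than over all genes. After quantile normalization 2 and 2 were higher, and with the spiked controls set equal 12 and 19. COX7A1, the muscle and heart form of a cytochrome oxidase subunit, was lower in cortex, at -1.53 and -1.26, and its general form COX7A2 had differences of 0.78 and 0.75 and was not called. With the spiked controls set equal COX7A1 was not called, at -0.51 and -0.17, and COX7A2 was called higher, at 1.80 and 1.84. The human call of COX7A1 was also lost without cortex replicate 3, at -1.27, without cortex replicate 4, at -1.26, and without pancreas replicate 3, at -0.76. Of ATP synthase and nucleotide exchange 6 of 18 and 6 of 22 genes were higher, against 22.3% and 15.6% of all genes. Quantile normalization gave 5 and 4 higher and 1 and 2 lower, and the spiked controls 14 and 18 higher. The counts over all genes under these scalings are those given for complex I. ATP5F1B, the catalytic subunit, read 13.05 and 13.09 in cortex and 11.93 and 11.91 in pancreas on the rhesus arrays, and was higher by 1.15 and 2.16, by 1.04 and 1.69 after quantile normalization and by 2.17 and 3.25 with the spiked controls set equal. The medians of these mitochondrial lists were all above those of all genes as deposited. Setting the spiked controls equal moves a list and all genes by the same amount, so it leaves that gap unchanged. For complex I the medians were then 1.71 and 1.85, against 0.90 and 1.02 over all genes.

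**Figure D5:**
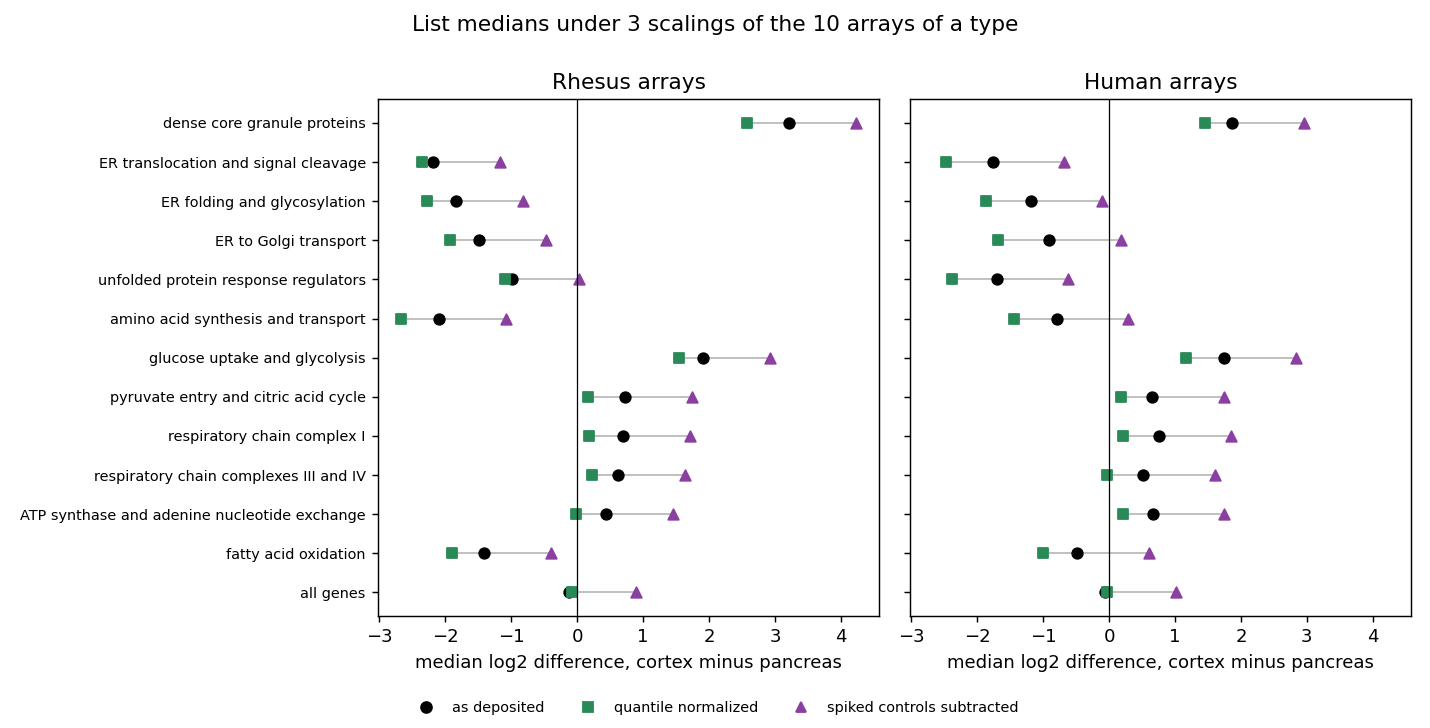
Median log2 difference, cerebral cortex minus pancreas, of 12 gene lists and of all genes with rhesus probes (left) and human probes (right) as deposited (black circles), after quantile normalization (green squares) and with the spiked controls set equal (purple triangles). Glycolysis and dense core granule proteins stay above 0 and ER translocation and folding below 0 under each scaling, while the medians of the respiratory chain and ATP synthase lists come close to 0 after quantile normalization. The medians of ER to Golgi transport, amino acid and fatty acid genes with human probes and of unfolded protein response regulators with rhesus probes are below 0 as deposited and above 0 with the spiked controls set equal. The median of all genes is then 0.90 with rhesus and 1.02 with human probes.

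The phosphagen and ion pump genes had larger differences. CKB, the brain creatine kinase, read 12.76 and 12.78 in cortex and 4.70 and 4.88 in pancreas on the rhesus arrays, and 12.97 and 13.08 in cortex and 5.45 and 5.70 in pancreas on the human arrays. Of the genes of creatine and its phosphate 5 of 9 and 5 of 9 were called higher and 2 and 2 lower. The creatine transporter SLC6A8 was higher in cortex too, by 2.61 and 2.68. The enzymes that make creatine went the other way. GATM, which forms its precursor, read 10.25 and 10.14 in cortex and 13.82 and 13.78 in pancreas on the rhesus arrays, and 8.19 and 8.19 in cortex and 12.36 and 12.29 in pancreas on the human arrays. GAMT, which finishes it, was lower at -3.96 and -3.43. CKB and SLC6A8 were thus higher in cortex and both genes of creatine synthesis lower, on both array types as deposited, after quantile normalization and with the spiked controls or the array medians set equal.

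Of the sodium and calcium pump genes 5 of 8 and 8 of 10 were higher in cortex. ATP2A2, the common calcium pump of the ER, read 12.70 and 12.76 in cortex and 8.43 and 8.64 in pancreas on the rhesus arrays and was higher by 4.20 and 4.32. ATP2A3, its paralogue, read 2.75 and 3.15 in cortex and 6.56 and 6.46 in pancreas on the rhesus arrays and was lower at -3.56 and -3.78. The plasma membrane calcium pump ATP2B1 was higher by 2.97 and 4.21 and ATP1B1, a subunit of the sodium pump, by 3.05 and 4.06. The vacuolar proton pump, which acidifies synaptic vesicles and other compartments, had 5 of 11 and 13 of 20 genes higher, with medians of -0.077 and 2.52. Its subunit ATP6V0E1 went against the list, at 8.84 and 8.72 in cortex and 11.54 and 11.56 in pancreas on the rhesus arrays, and was lower at -2.77 and -2.79. Its paralogue ATP6V0E2, read on the human arrays, was higher by 2.48, and ATP6V1G2, the neuronal paralogue of a stalk subunit, by 8.56, where ATP6V1G1 had a difference of 0.46, called at 1.55 with the spiked controls set equal.

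Fatty acid oxidation genes were lower in cortex in 8 of 14 and 5 of 21 genes, against 15.7% and 7.3% of all genes. The medians were -1.41 and -0.48, and 2 and 2 genes were called higher. With the spiked controls set equal 2 and 1 were lower and 4 and 6 higher. Over all genes 1015 of 14132 and 512 of 19775 were then lower and 5854 and 10835 higher. The list medians were then -0.40 and 0.60, against 0.90 and 1.02 over all genes. ACADVL, which starts the breakdown of long chains, was lower at -1.83 and -1.78, and not called with the spiked controls set equal, at -0.82 and -0.70. The 2 members called higher on both array types were ACSL6 and CPT1C. ACSL6, an acyl-CoA synthetase, read 9.63 and 9.54 in cortex and 4.26 and 5.04 in pancreas on the rhesus arrays and was higher by 4.94 and 4.57. CPT1C, the neuronal form of carnitine palmitoyltransferase, was higher by 2.56 and 3.31, while the liver form CPT1A was lower at -1.98 on the rhesus arrays and had a difference of -0.12 on the human arrays. The rhesus call of CPT1A was lost with the spiked controls set equal, at -0.96.

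Outside the lists, the 10 genes with the largest differences called higher in cortex on both array types were CHN1, BASP1, NELL2, SLC12A5, DIRAS2, NRN1, AMER2, MYT1L, RAB6B and BRINP1. CHN1, a regulator of Rac GTPases in neurons, read 14.59 and 14.56 in cortex and 3.30 and 3.70 in pancreas on the rhesus arrays and differed by 11.08 and 10.47. SLC12A5, the chloride exporter of mature neurons, differed by 9.38 and 8.60, and MYT1L, a neuronal transcription factor, by 7.82 and 9.04. The 10 with the largest differences called lower were ZG16, MS4A8, NUPR1, ITIH4, SLC39A5, PLBD1, FKBP11, C5, NUCB2 and CYP3A43. ZG16, a protein of the zymogen granule, read 2.76 and 2.74 in cortex and 14.61 and 14.58 in pancreas on the rhesus arrays and differed by -11.85 and -10.18. NUPR1, a stress-induced chromatin protein first described in injured rat pancreas, differed by -9.27 and -7.85, and FKBP11, a prolyl isomerase of the ER, by -7.90 and -7.33. The zinc transporter SLC39A5 differed by -7.88 and -7.45.

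Of the genes called in opposite directions, those whose smaller difference was largest were EPB41L4B, EEF1D, KRT18, COL18A1 and GUCD1, higher in cortex on the rhesus and lower on the human arrays. EPB41L4B, a protein of the FERM domain family, read 8.38 and 8.42 in cerebral cortex and 2.85 and 2.89 in pancreas on the rhesus arrays, and 3.27 and 2.99 in cerebral cortex and 8.49 and 8.41 in pancreas on the human arrays. Of its 6 human probe sets 2 were called higher and 2 lower. The reverse pattern was led by IGSF8, ENO2, SLC4A7, HIVEP2 and SPTAN1, with IGSF8 at -3.82 with rhesus and 3.61 with human probes. Read as the median of all its probe sets SLC4A7 was 0.63 with rhesus and -0.12 with human probes, the reverse of its brightest probe sets, and SPTAN1 was -0.027 with human probes. Such genes are read by different probes on the array types and have no settled direction here.

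Genes often taken as constant mostly differed between these arrays. Of the housekeeping genes 5 of 6 and 7 of 10 were called higher in cortex, against 22.3% and 15.6% of all genes, with medians of 2.88 and 2.00. Actin (ACTB) read 14.23 and 14.26 in cortex and 11.33 and 11.36 in pancreas on the rhesus arrays, and 14.24 and 14.28 in cortex and 11.60 and 11.29 in pancreas on the human arrays. The adaptor protein YWHAZ was higher by 4.59 and 3.41, and B2M, the light chain of class I histocompatibility antigens, was lower at -2.25 and -2.04. B2M was not called on the human arrays with the spiked controls set equal, at -0.95.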

How the data were processed

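The 20 arrays were hybridized with cRNA of 5 sources, and the 8 cerebral cortex and pancreas arrays were compared. The authors deposited 1 table per array type with log2 expression values, credited to RMA in the submitters' processing notes. The sources used here give neither the RMA version nor whether the arrays of a type were normalized together. The tables held 52865 rhesus and 54675 human probe sets. Of these, 99 and 62 control probe sets were set aside, and probe sets with several symbols (361 and 1801) or none (27449 and 11721) were not named.

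Each table was fitted by itself with limma 3.58.1 in R 4.3.3 (lmFit and eBayes, 5 sources, 10 arrays), and p-values were adjusted over all tested probe sets by the Benjamini-Hochberg method. A gene was read from its brightest probe set over the 10 arrays. Probes of closely related genes may bind each other's transcripts. Genes were named as the members of 35 lists (647 genes) with the largest differences called the same way on both array types, the members called against their list, paralogues of one step, the 10 largest in each direction outside the lists, and the 5 largest opposite calls in each pattern. The other members named were taken for their role or for a missing call, after their values were seen. The members and lists were chosen with earlier results of these data known. Alternatives were quantile normalization (all 10 arrays of a type), subtraction of array medians or of the mean of the spiked controls, other minimum differences, a filter on dim probe sets, other ways to read a gene, a fit of 4 arrays, a replicate block and leaving out each array. On simulated data the fit recovered 75 of 100 probe sets changed by 1.5 and 97 of 100 changed by 3 among 52766 rhesus probe sets. Among 54613 human probe sets it recovered 80 and 97. In the simulation cortex was set equal to pancreas apart from the changed probe sets, and no scaling offset was added. The rates thus do not cover the effect of scaling, nor a comparison with as many differences as this one.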

Additional observations from a re-analysis of the deposited data

How the results depend on the processing

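The number of calls depended most on the scaling and on the minimum difference, and the cause was not tested. Quantile normalization gave 4398 human probe sets and 1289 genes on both array types lower in cortex. With the spiked controls set equal, 17216 rhesus probe sets were higher and 2280 lower, 29683 human probe sets were higher and 844 lower, and 4205 genes were higher and 315 lower on both array types. With no minimum difference 23435 rhesus and 18882 human probe sets were lower, and 2440 genes were higher and 2307 lower on both types. At a minimum of 2 the counts were 5056 higher and 2317 lower for rhesus probe sets, 3244 and 907 for human probe sets, and 819 and 326 for genes on both types. A gene read as the median of its probe sets gave 933 genes higher and 392 lower on both types. Leaving out 1 array, subtracting array medians, leaving out dim probe sets and fitting only the 4 arrays kept each of these counts within 1.5 times its value.

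The replicate numbers did not pair the arrays, since same-numbered cortex and pancreas arrays had deviations that correlated at 0.0063 (rhesus) and -0.0025 (human). With the replicate number as a block, 8838 rhesus probe sets were higher and 5593 lower, and 5934 human probe sets were higher and 2526 lower, and no named gene changed its call.

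Among the named genes, differences turned round with the spiked controls set equal for DNASE1 (0.087), NDUFV3 (0.017), PFKL (0.076) and SLC6A11 (0.077) on the human arrays, by construction of that scaling. Read as the mean of its probe sets SLC4A7 was 0.24 on the rhesus arrays, and as their median 0.63 with rhesus and -0.12 with human probes. As the median of the human probe sets GAD2 was -0.020, GFAP -0.019, NDUFS1 -0.087 and SPTAN1 -0.027. Of 284 named values 17 others lost their call and 4 gained one when a gene was read as the mean of its probe sets. Read as their median, 47 others lost it. The values that turned round, 1 with the mean and 6 with the median, lost their calls too and are not in these counts. Subtracting array medians ended the human calls of DNASE1, NDUFV3, PFKL and SLC6A11 and gave one to ERO1A. The fit of 4 arrays ended those of COX7A1, CREB3L1, DNASE1, PDK2 and SLC6A11. The p-values rest on 2 arrays a tissue, and background and the top of the intensity range limit how far the largest differences can be read.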
